A study of Caenorhabditis elegans with 10 samples.

Results

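Argonautes are the proteins that hold a small RNA and use it to find matching transcripts. The genes described here are 10 Argonautes of Caenorhabditis elegans, taken by name: prg-1, csr-1, hrde-1, wago-1, ergo-1, alg-1, alg-2, alg-3, alg-4 and rde-1. All 10 were found in the tables of both induction times, out of 22554 genes listed in either table. RNA was measured in whole worms of 2 transgenic strains. GMC101 carries human Aβ1-42 under the unc-54 promoter, which drives expression in body wall muscle, together with an mtl-2 promoter fused to GFP. CL2122 carries the unc-54 vector without Aβ and the same mtl-2 GFP marker. Both strains were grown on OP50 bacteria and moved to a warmer temperature for 24 h or 8 h, so the control worms shared the temperature shift. By the labels there were 3 samples of each strain at 24 h and 2 at 8 h. They give the stage as L1, whereas the methods of the study describe young adults. Each strain is a single line, and the transgene is driven in muscle, not in the germ line where most of these Argonautes act.

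The small RNA pathways of the worm are layered. Primary Argonautes are loaded with a first small RNA: PRG-1 with piRNAs, ERGO-1, ALG-3 and ALG-4 with siRNAs of the 26G class, RDE-1 with siRNAs cut from foreign double-stranded RNA, and ALG-1 and ALG-2 with microRNAs. RNA-dependent RNA polymerases then copy targeted transcripts into siRNAs of the 22G class, which load secondary Argonautes such as WAGO-1 and HRDE-1, which silence, and CSR-1, which acts on expressed germline genes. PRG-1, CSR-1, WAGO-1 and HRDE-1 are known for their work in the germ line. ALG-3 and ALG-4 act during spermatogenesis, ERGO-1 in oocytes and embryos, and ALG-1 and ALG-2 mostly in somatic tissues.

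For each strain and time the authors deposited 1 column of normalized counts, and the whole reads behind it were recovered. They came to between 20533034 and 25283085 per column. Whether a column is 1 library or a pool of the labeled samples is not given in the sources used here. No spread between replicates could be computed, so no p-value is given, and each comparison is between those columns rather than between the conditions. Brackets after a log2 fold change hold its 95% counting interval (exact Clopper-Pearson), which covers counting error only. A gene is called when it lies past 2-fold, its counting interval leaves out 0, and the higher column has at least 10 normalized counts. Although the labels give the stage as L1, the 14 markers of oocytes and eggshell on the list used all had reads in each column, and summed to between 7247 and 11557 CPM (counts scaled to a common library size). In whole worms, fewer cells of a type and less RNA per cell cannot be told apart.

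At 24 h of induction, alg-3 and alg-4 stood at about 3.5 times the CL2122 level in GMC101, and they were the 2 of 10 Argonautes called higher, with none called lower. Among all genes tested at 24 h, 9.42% were called higher and 12.5% lower. The 4 Argonautes of the germline piRNA and 22G pathways (prg-1, csr-1, wago-1 and hrde-1) lay above 0 without reaching 2-fold, and the microRNA Argonautes alg-1 and alg-2 lay below 0. Of the 10 genes 7 lay above 0 and 3 below at 24 h, where 49.6% of all genes tested lay above and 50.4% below. At 8 h none of the 10 was called, while 2.38% of all genes tested were called higher and 4.23% lower. At that time 6 of the 10 lay above 0 and 4 below, beside 50.9% and 49.1% of all genes. As a median, the log2 fold change over the 10 genes was 0.50 at 24 h, beside -0.0050 over all 16757 genes tested and 0.13 over the 4643 genes with at least 1000 reads in both columns, and 0.10 at 8 h, beside 0.0040 over 15281 genes.

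**Figure D1:**
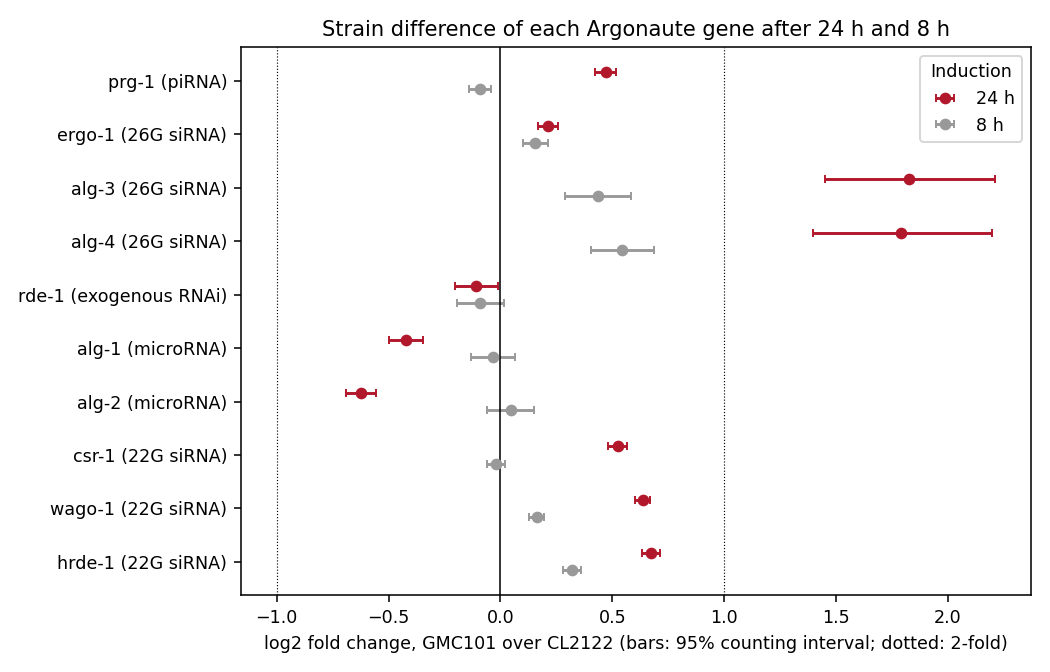
Strain difference of each Argonaute gene. The x axis is the log2 fold change of GMC101 over CL2122, points are the deposited columns at 24 h (red) and 8 h (gray), bars are 95% counting intervals and dotted lines mark 2-fold. At 24 h alg-3 and alg-4 lie at 1.83 and 1.79, past the line, while alg-1 and alg-2 lie at -0.42 and -0.62.

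The genes alg-3 (WBGene00011910, chromosome IV, 11704246 to 11708264, plus strand) and alg-4 (WBGene00006449, chromosome III, 9887210 to 9891458, minus strand) encode paired Argonautes of the spermatogenic 26G pathway, needed for sperm that work at warm temperatures. Normalized counts of alg-3 at 24 h were 262 in GMC101, against 74.0 in CL2122, a log2 fold change of 1.83 [1.45, 2.21]. For alg-4 they were 233 in GMC101 and 67.4 in CL2122, a log2 fold change of 1.79 [1.40, 2.20]. Both genes thus had between 3 and 4 times as many counts in GMC101. At 8 h alg-3 had 884 normalized counts in GMC101, against 653 in CL2122, a log2 fold change of 0.44 [0.29, 0.58]. At 8 h alg-4 had 999 in GMC101 and 685 in CL2122, a log2 fold change of 0.54 [0.40, 0.69]. The direction was that of 24 h, but neither gene was near 2-fold. The counts at 24 h rest on 249 and 221 reads in GMC101 and on 78 and 71 in CL2122, the fewest of any member.

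Because alg-3 and alg-4 are closely related copies and the treatment of reads that fit both is not given, the pair was also summed. The sum held 470 reads in GMC101, against 149 in CL2122, at 24 h, a 3.50-fold difference (log2 1.81 [1.54, 2.08]). At 8 h it held 1819 reads in GMC101, against 1385 in CL2122, a 1.41-fold difference. The ratio of alg-3 to alg-4 per kilobase was 1.203 [1, 1.449] in GMC101 and 1.17 [0.84, 1.64] in CL2122 at 24 h, and 0.945 [0.861, 1.04] in GMC101 and 1.02 [0.915, 1.13] in CL2122 at 8 h. Each interval includes 1 except, and barely, that of GMC101 at 24 h. The ratio was higher at 24 h than at 8 h in both strains, and a change of balance was not tested. With edgeR's exact test at an assumed biological coefficient of variation of 0.4, neither alg-3 nor alg-4 was called at 24 h, while both were at 0.2 and 0.1.

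Sperm markers differed in the same columns. Of 12 sperm marker genes, 11 had enough counts to be tested at 24 h, and 7 were called higher in GMC101 and none lower, with a median log2 fold change of 2.56. The 7 were spe-11, gsp-3, gsp-4, msp-38, msp-56, msp-142 and ssp-16, named after their values were seen, and the other 4 tested did not follow them. In those 4, spe-9, spe-41 and fer-1 lay below 0, down to -0.39, and spe-42 had 19 reads in GMC101, against 21 in CL2122. The msp genes have near-identical copies, among which reads may be split. The summed level of the list was 65.6 CPM in GMC101 and 24.8 CPM in CL2122 at 24 h, and 533 CPM in GMC101 and 428 CPM in CL2122 at 8 h. In CL2122 at 24 h, 1 marker of the list, spe-38, had 0 reads. The part that the amount of sperm or spermatogenic tissue plays in the difference of alg-3 and alg-4 was not tested.

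**Figure D2:**
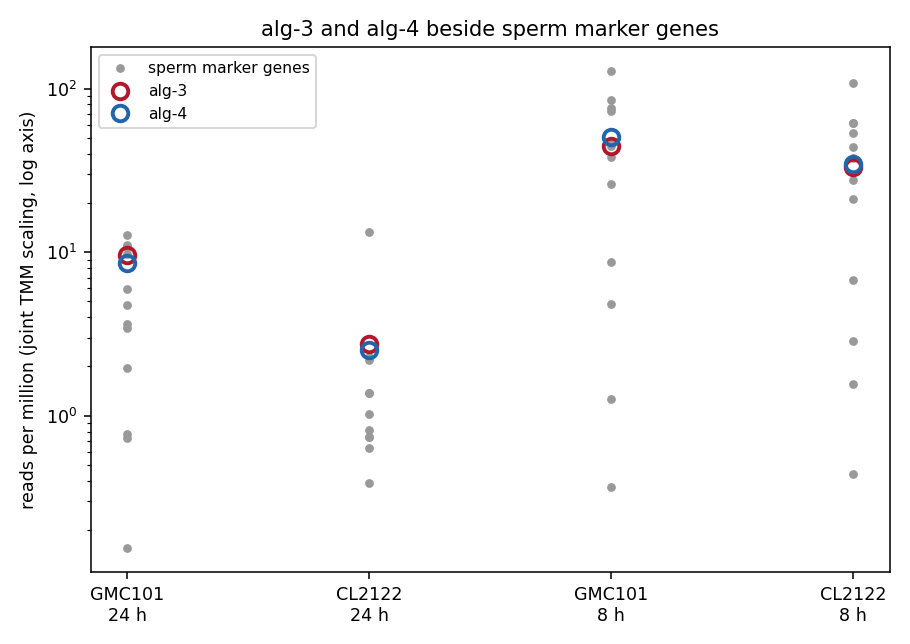
Levels of alg-3 (red circles), alg-4 (blue circles) and sperm marker genes (gray dots) in the 4 deposited columns, on a log axis of CPM with joint TMM scaling. Both Argonautes and most markers are lower at 24 h than at 8 h, and at 24 h both Argonautes are higher in GMC101 than in CL2122. The gene spe-38, at 0 reads in CL2122 at 24 h, has no dot there.

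The third 26G Argonaute, ergo-1 (WBGene00019971, chromosome V, 1008803 to 1018350, plus strand), behaved differently. It had 8820 normalized counts in GMC101, against 7618 in CL2122 at 24 h, a log2 fold change of 0.21 [0.17, 0.26]. At 8 h it had 5502 in GMC101 and 4941 in CL2122, a log2 fold change of 0.15 [0.10, 0.21]. On the TMM scale the strain differences at the 2 times did not differ from each other beyond counting error. With the columns scaled to total reads, the log2 fold change of ergo-1 was 0.020 at 24 h and 0.19 at 8 h, which differ beyond counting error. In the annotation ergo-1 overlaps pei-2, a gene on the other strand, over 17 bases of exon.

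The Piwi gene prg-1 (WBGene00004178, chromosome I, 7585324 to 7588367, minus strand), whose protein holds piRNAs, had 8701 normalized counts in GMC101, against 6281 in CL2122 at 24 h. Its log2 fold change at 24 h was 0.47 [0.42, 0.52]. At 8 h prg-1 had 6618 normalized counts in GMC101, against 7050 in CL2122, a log2 fold change of -0.091 [-0.14, -0.043]. The strain order at 8 h was thus the opposite of that at 24 h. A closely related copy, prg-2, had 5660 reads in GMC101, against 6255 in CL2122 at 24 h, and 7093 in GMC101 and 7358 in CL2122 at 8 h. Its log2 fold changes were 0.0062 at 24 h and 0.047 at 8 h. Summed over both copies, the log2 fold change was 0.26 at 24 h and -0.020 at 8 h, and how reads were shared between the copies is not given in the sources used here.

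Among the secondary Argonautes, wago-1 (WBGene00011061, chromosome I, 7235371 to 7238790, plus strand), which silences in germ granules, had 17953 normalized counts in GMC101, against 11547 in CL2122 at 24 h. Its log2 fold change was 0.64 [0.60, 0.67] at 24 h and 0.16 [0.13, 0.20] at 8 h, where it had 15239 in GMC101 and 13614 in CL2122. It was higher in GMC101 at both times, and more so at 24 h. The nuclear Argonaute hrde-1 (WBGene00007624, chromosome III, 4172337 to 4176159, minus strand), which carries heritable silencing into the nucleus, had 11917 normalized counts in GMC101, against 7477 in CL2122 at 24 h, a log2 fold change of 0.67 [0.63, 0.71]. At 8 h it had 10764 in GMC101 and 8630 in CL2122, a log2 fold change of 0.32 [0.28, 0.36]. Like wago-1, hrde-1 was higher in GMC101 at both times.

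The gene csr-1 (WBGene00017641, chromosome IV, 7957580 to 7962129, plus strand) encodes the essential Argonaute that acts on expressed germline transcripts. At 24 h it had 10587 normalized counts in GMC101, against 7361 in CL2122, a log2 fold change of 0.52 [0.48, 0.57]. At 8 h it had 9890 in GMC101 and 10030 in CL2122, a log2 fold change of -0.020 [-0.061, 0.020], an interval that includes 0. A strain difference in csr-1 was therefore not detectable at 8 h. The annotation places another gene, frpr-10, on the same strand, and its span covers 3363 bases of csr-1 exon. That gene was given 5 to 20 reads per column. How reads that fit both genes were counted is not given in the sources used here. The annotation lists 3 transcripts for csr-1, and a count per gene does not separate them.

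Summed over prg-1, csr-1, wago-1 and hrde-1, the 24 h count was 46661 reads in GMC101, against 34414 in CL2122, a 1.505-fold difference (log2 0.59 [0.57, 0.61]). The 8 h sum was 41068 reads in GMC101, against 40705 in CL2122, a 1.08-fold difference (log2 0.11). Germ line and oocyte markers were set beside them. Of 12 germ line marker genes, 9 lay above 0 and 3 below at 24 h, none was called, and the median log2 fold change was 0.23. Values on this list ran from -0.59 to 0.56. Its lowest gene was the synaptonemal syp-1, with 2047 reads in GMC101 and 3420 in CL2122, while the RNA-binding gld-1 lay above 0. Scaling to total reads would move each value at 24 h by -0.19, nearly the size of this median. For oocyte and eggshell markers 14 of 14 lay above 0 at 24 h, none was called, and the median was 0.69. At 8 h the medians were -0.018 for the germ line list and 0.10 for the oocyte list. Some somatic markers differed too. At 24 h 6 of 12 body wall muscle genes were called higher in GMC101 and none lower, with a median of 0.99. Of 10 intestine genes 3 were called higher and none lower, with a median of 0.46. Of 6 early embryo genes 3 were called lower and none higher, with a median of -0.99. Among all genes tested 9.42% were called higher and 12.5% lower. Of 10 neuron genes none was called, with 5 above 0, 5 below and a median of 0.0015. The part of any of these tissues in the difference of the Argonautes was not tested.

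The microRNA Argonautes went the other way at 24 h. Of this pair, alg-2 (WBGene00000106, chromosome II, 873176 to 879001, plus strand) had 2894 normalized counts in GMC101, against 4456 in CL2122 at 24 h, a log2 fold change of -0.62 [-0.69, -0.55]. At 8 h it had 1471 in GMC101 and 1425 in CL2122, a log2 fold change of 0.046 [-0.060, 0.15]. For alg-1 (WBGene00000105, chromosome X, 13949114 to 13956261, plus strand), the values at 24 h were 2526 in GMC101 and 3386 in CL2122, a log2 fold change of -0.42 [-0.50, -0.35]. Its 8 h values were 1682 in GMC101 and 1720 in CL2122, a log2 fold change of -0.032 [-0.13, 0.066]. Both genes were lower in GMC101 at 24 h, and both intervals at 8 h include 0. These genes are also related copies, and their sum held 5145 reads in GMC101, against 8262 in CL2122 at 24 h, a log2 fold change of -0.53 [-0.58, -0.48]. The 8 h sum was 3046 reads in GMC101, against 3255 in CL2122, a log2 fold change of 0.0038.

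The gene rde-1 (WBGene00004323, chromosome V, 9987916 to 9991642, minus strand), required for RNA interference from foreign double-stranded RNA, differed little between the strains at either time. It had 1670 normalized counts in GMC101, against 1800 in CL2122 at 24 h, a log2 fold change of -0.11 [-0.21, -0.011]. Its 8 h values were 1403 in GMC101 and 1493 in CL2122, a log2 fold change of -0.090 [-0.20, 0.016], an interval that includes 0. With total counts the 24 h value of rde-1 was -0.30.

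Scaling bears on the small differences. Total-count scaling moved every gene at 24 h by -0.19 on the log2 scale relative to TMM scaling. With it the order of the 10 genes could not change, wago-1 and hrde-1 stayed above 0, and alg-1 and alg-2 moved further below. No member changed side at 24 h under total-count or median-of-ratios scaling. At 8 h alg-1 and csr-1 changed side under total counts, to 0.0019 and 0.013.

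Levels can be compared between genes only per length, here as reads per kilobase of the deposited gene length, scaled to library size (RPKM), with the 4 columns scaled jointly by TMM. On that scale wago-1 was the most abundant of the 10 in every column, at 214 in GMC101 and 140 in CL2122 at 24 h, and 252 in GMC101 and 224 in CL2122 at 8 h. The next ranks were held by hrde-1, prg-1 and csr-1, in an order that varied between columns, with ergo-1 among or just after them. In CL2122 at 24 h, hrde-1 (78.8), ergo-1 (77.7) and csr-1 (76.7) did not differ beyond counting error on the deposited lengths. Then came alg-2, rde-1 and alg-1, between 17.02 and 50.4 over all columns. On these lengths the neighbors alg-2 and rde-1 were alike within counting error at 8 h in both strains, and rde-1 and alg-1 at 24 h in GMC101. On the deposited lengths, alg-3 and alg-4 were lowest in every column. They differed from each other beyond counting error, and barely, in GMC101 at 24 h but in no other column. For alg-1 the annotation gives 6696 bases of exon, against 5001 deposited, and for alg-2 4142, against 3294. The place of alg-1 above alg-3 and alg-4 in GMC101 at 8 h depends on which length is used. So do its place above rde-1 in CL2122 at 24 h and the likeness of rde-1 to alg-2 and to alg-1. In GMC101 at 24 h the most abundant member, wago-1, had 87.9 times the level of the least, alg-4.

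**Figure D3:**
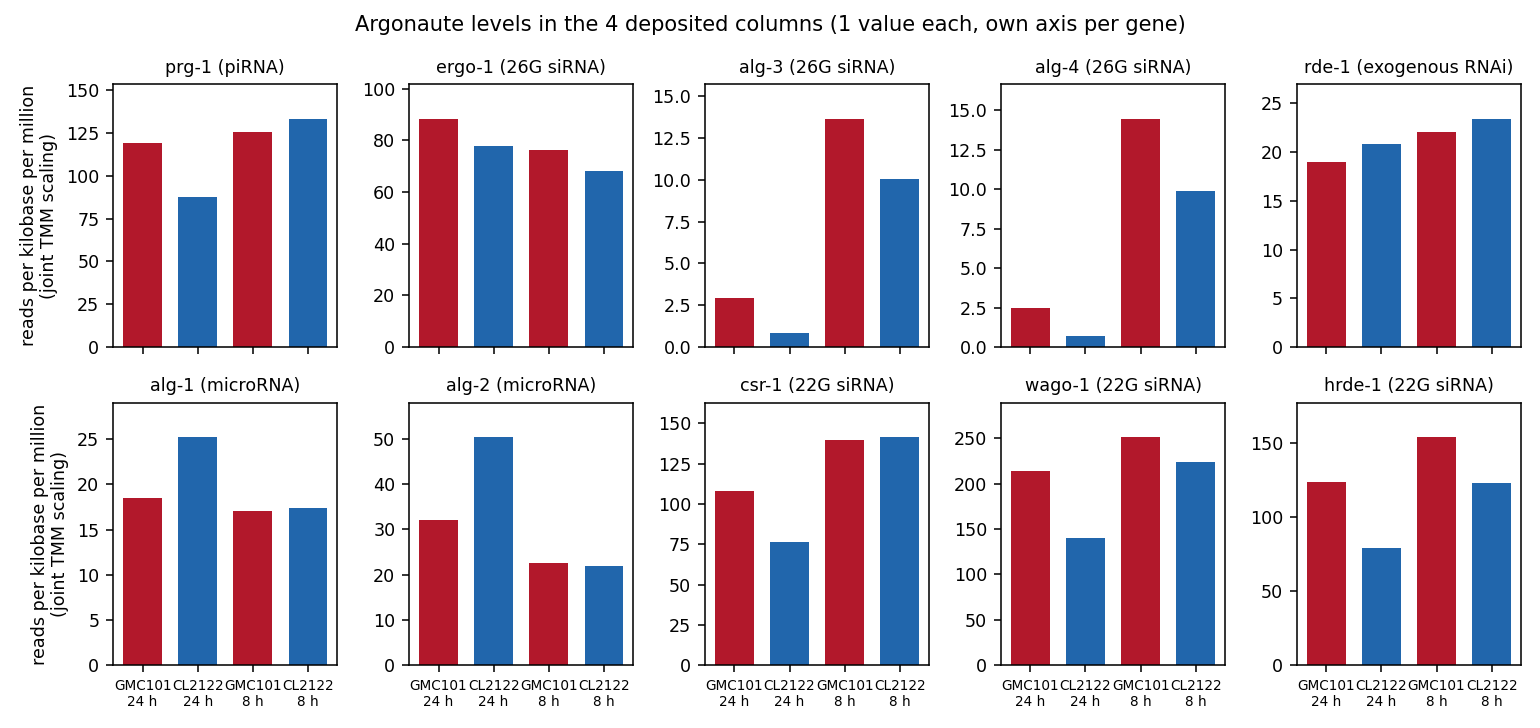
Level of each Argonaute gene in the 4 deposited columns, in RPKM with joint TMM scaling. Each bar is 1 deposited column with no replicate (red GMC101, blue CL2122) and each gene has its own axis from 0. Bars for alg-3 and alg-4 are short at 24 h in both strains, and the bar of alg-2 in CL2122 at 24 h stands out at 50.4.

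As a share of the summed per-length level of the 10 genes, wago-1 made up 29.4% in GMC101 and 25.1% in CL2122 at 24 h, and 30.1% in GMC101 and 29.0% in CL2122 at 8 h. The share of alg-2 was 4.41% in GMC101 and 9.02% in CL2122 at 24 h, and 2.70% in GMC101 and 2.83% in CL2122 at 8 h. Within the microRNA pair, alg-1 stood at 0.575 [0.544, 0.608] of alg-2 per kilobase in GMC101 and 0.5004 [0.479, 0.523] in CL2122 at 24 h. At 8 h it stood at 0.753 [0.701, 0.809] in GMC101 and 0.795 [0.741, 0.852] in CL2122. The balance of the pair was thus further toward alg-2 at 24 h in both strains, and at 24 h more so in CL2122. These ratios use the deposited lengths of 5001 bases for alg-1 and 3294 for alg-2, where the annotation gives 6696 and 4142 bases of exon.

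The times were also set against each other within each strain. The 8 h and 24 h tables were normalized separately, so the recovered reads of the 18538 genes in both were scaled together, and time cannot be told apart from anything else that differed between the sets. The study's supplement calls the 8 h set a second batch, without saying of what. In GMC101 alg-3 and alg-4 were called lower at 24 h and no member higher, beside 15.6% of all genes called lower and 12.4% higher. In CL2122 alg-3 and alg-4 were called lower and alg-2 higher, beside 19.4% of all genes called lower and 19.3% higher. In each strain 3 of the 10 lay above 0 and 7 below, where of all genes 49.7% lay above and 50.3% below in GMC101, and 48.6% above and 51.4% below in CL2122.

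In GMC101 alg-3 fell to 2.94 RPKM at 24 h, against 13.7 at 8 h, a log2 fold change of -2.22 [-2.43, -2.01]. In CL2122 alg-3 fell to 0.843 at 24 h, against 10.1 at 8 h, a log2 fold change of -3.58 [-3.94, -3.24]. The fall was 4.66-fold in GMC101 and 11.95-fold in CL2122. For alg-4 the level was 2.44 at 24 h and 14.5 at 8 h in GMC101, a log2 fold change of -2.57 [-2.78, -2.36]. In CL2122 it was 0.719 at 24 h and 9.90 at 8 h, a log2 fold change of -3.78 [-4.16, -3.43]. The larger fall was again that of CL2122. Sperm markers fell as well, with 10 of 11 tested genes called lower in GMC101 (median -3.13) and 11 of 12 in CL2122 (median -5.56). With an assumed coefficient of variation of 0.4, edgeR's exact test called alg-3 and alg-4 lower in CL2122 and neither of them in GMC101.

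The gene alg-2 rose in CL2122 to 50.4 RPKM at 24 h, against 21.9 at 8 h, a log2 fold change of 1.21 [1.12, 1.29]. With edgeR's exact test this rise was called at an assumed coefficient of variation of 0.1 and 0.2, but not at 0.4. In GMC101 alg-2 was at 32.2 at 24 h and 22.6 at 8 h, a log2 fold change of 0.51 [0.42, 0.60]. For alg-1 the log2 fold change was 0.12 [0.029, 0.21] in GMC101 and 0.54 [0.46, 0.62] in CL2122. Both microRNA Argonautes had higher values at 24 h in each strain, with larger differences in CL2122. The 4 germline Argonautes had values below 0 in each strain, from -0.37 for csr-1 to -0.072 for prg-1 in GMC101, and from -0.88 for csr-1 to -0.60 for prg-1 in CL2122. For ergo-1 the log2 fold change was 0.21 [0.16, 0.26] in GMC101 and 0.19 [0.14, 0.24] in CL2122, and for rde-1 -0.21 in GMC101 and -0.17 in CL2122. Total-count scaling moved every gene by 0.14 in GMC101 and 0.34 in CL2122, and with it prg-1 in GMC101 stood at 0.070 and rde-1 in CL2122 at 0.17, on the other side of 0.

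**Figure D4:**
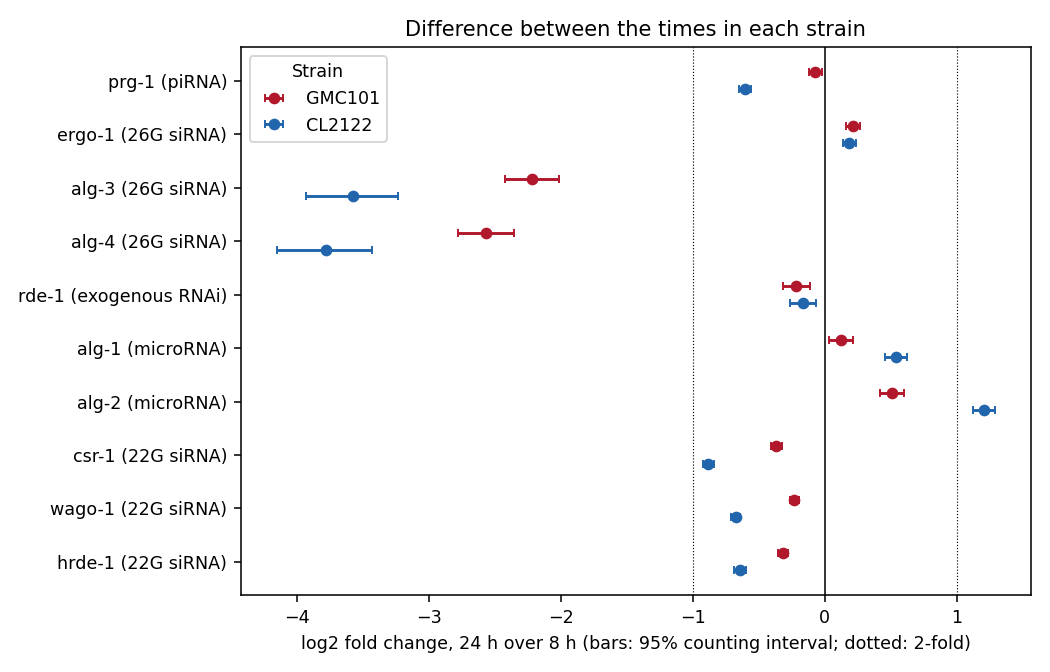
Log2 fold change of each Argonaute gene at 24 h over 8 h in GMC101 (red) and CL2122 (blue), with 95% counting intervals and dotted lines at 2-fold. Both strains have alg-3 and alg-4 far left of the line, CL2122 further, and alg-2 in CL2122 is the 1 value right of it, at 1.21.

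The strain difference at 24 h minus that at 8 h was computed from the 4 columns on the joint scaling, with a normal counting interval. It was 1.36 [0.97, 1.75] for alg-3 and 1.22 [0.81, 1.63] for alg-4, past 1 on the log2 scale, as were 9.30% of all genes tested in that direction, with 7.44% past -1. For prg-1 it was 0.53 [0.47, 0.60], for csr-1 0.52 [0.46, 0.57], for wago-1 0.45 [0.40, 0.49] and for hrde-1 0.33 [0.27, 0.38]. All of these intervals lie above 0. For alg-2 it was -0.70 [-0.82, -0.57] and for alg-1 -0.42 [-0.54, -0.30], both below 0. The intervals of ergo-1, 0.028 [-0.043, 0.099], and rde-1, -0.047 [-0.19, 0.096], include 0. The share of all genes whose interval leaves out 0 was not computed, and with many reads even a small difference leaves it out. With total-count scaling the intervals of alg-3, alg-4, prg-1, csr-1, wago-1 and hrde-1 again lay above 0. Those of ergo-1, at -0.17 [-0.24, -0.10], and rde-1, at -0.25 [-0.39, -0.10], lay below it with alg-1 and alg-2.

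Other genes of the small RNA pathways were taken from lists. Of 106 matched genes, 105 were tested at each time, and their median log2 fold change was 0.052 at 24 h and 0.016 at 8 h. Total-count scaling turned the sign at 24 h, giving a median of -0.14. At 24 h 1 of them was called higher and 2 lower, beside 9.42% and 12.5% of all genes, and at 8 h 1 was called higher and none lower. Of 30 genes of piRNA production and germ granules, 26 lay above 0 at 24 h with none called and a median of 0.35. Of 32 genes of the RNA-dependent RNA polymerase, Dicer and mutator list, 10 lay above 0 and 22 below at 24 h, with a median of -0.046. Of 9 nuclear RNAi genes the median was -0.12, of 17 microRNA factors 0.020 and of 5 RNAi import genes -0.14, with none called. The piRNA and granule list was thus the pathway list with the highest median at 24 h, and its median at 8 h was -0.036. The shift of -0.19 under total counts would leave the 24 h median of the piRNA and granule list above 0 and take that of the microRNA factors below it.

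**Figure D5:**
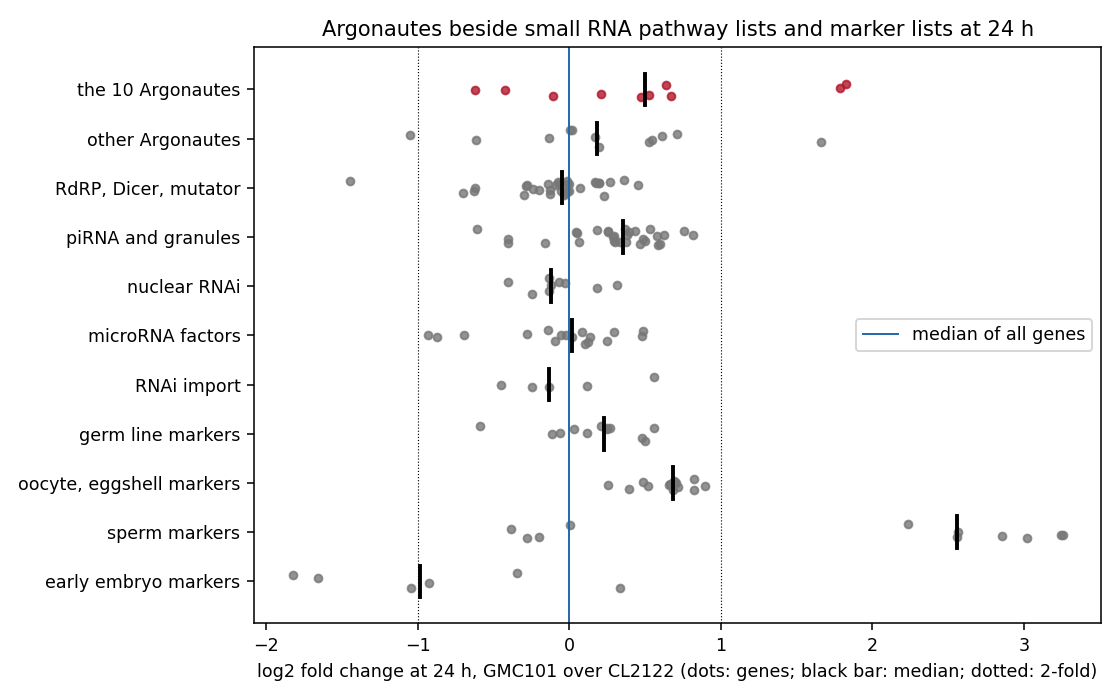
Log2 fold changes at 24 h, GMC101 over CL2122, for the 10 Argonautes (red) beside other small RNA pathway genes and marker lists (gray). Each dot is a gene, black bars are medians, the blue line is the median of all genes and dotted lines mark 2-fold. The sperm list has a median of 2.56 and the oocyte and eggshell list 0.69, beside 0.50 for the Argonautes.

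Among the 12 other Argonautes tested, 9 lay above 0 and 3 below at 24 h, with a median of 0.18, less than the shift under total counts. The pathway genes called at 24 h were vsra-1, nrde-3 and rrf-2. The germline Argonaute gene vsra-1 (WBGene00007297, chromosome I, 9673668 to 9678553) had 3687 reads in GMC101, against 1294 in CL2122 at 24 h, a log2 fold change of 1.66 [1.57, 1.75]. Its 8 h values were 2047 reads in GMC101, against 1189 in CL2122, a log2 fold change of 0.88 [0.78, 0.99]. It was higher in GMC101 at both times. The somatic nuclear Argonaute gene nrde-3 (WBGene00019862, chromosome X, 372235 to 376900) had 1406 reads in GMC101, against 3239 in CL2122 at 24 h, a log2 fold change of -1.05 [-1.14, -0.96]. Its 8 h values were 670 reads in GMC101, against 699 in CL2122, a log2 fold change of 0.038 [-0.12, 0.19], an interval that includes 0, as those of alg-1 and alg-2 do at that time.

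The RNA-dependent RNA polymerase gene rrf-2 (WBGene00004509, chromosome I, 12098671 to 12106112) was called at both times, in opposite directions. At 24 h rrf-2 had 1140 reads in GMC101, against 3456 in CL2122, a log2 fold change of -1.45 [-1.55, -1.35]. Its 8 h values were 465 reads in GMC101, against 197 in CL2122, a log2 fold change of 1.34 [1.10, 1.59]. Its level at 24 h was 1.81 times that at 8 h in GMC101, which was not called, and 12.7 times in CL2122, which was.

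Likeness of pattern was measured as the Euclidean distance between log2 levels over the 4 columns, each gene centered on its mean, among 10094 other genes with at least 50 normalized counts in every column. The gene nearest to alg-3 in this group of Argonautes was alg-4, at 0.288, and only 2 genes, alg-4 included, lay that near to alg-3. Of the pathway lists the nearest to alg-3 was sago-2, at 1.94, with 509 genes as near. For wago-1 and hrde-1 the nearest pathway gene was cgh-1, an RNA helicase of germ granules that was on the list of microRNA factors. It lay at 0.113 from wago-1 with 50 genes as near, and at 0.180 from hrde-1 with 40. For csr-1 it was meg-1, a germ granule gene, at 0.0673 with 18 genes as near, for prg-1 simr-1 at 0.132 with 239, and for ergo-1 henn-1 at 0.0959 with 109. Nearest to alg-2 was ain-1, a partner of the microRNA Argonautes, at 0.243 with 225 genes as near, and to alg-1 snpc-4, at 0.163 with 240. For rde-1 the nearest of all genes was cid-1, at 0.0161. With 4 values per gene, many genes can lie this near, and all share the 4 columns and their scaling.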

How the data were processed

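Whole-worm RNA from 10 labeled samples was sequenced by the authors. The submitters' processing notes name HISAT2 2.05, StringTie 1.33 and DESeq2, without roles, and the genome build, annotation and read counter are not given in the sources used here. The authors deposited 1 table per time with a normalized signal per gene and strain, gene lengths, and their own fold changes and p-values, which were not used. The signal of a column is a multiple of a fixed step per read, from which whole reads were recovered, to 0.01 of a read, for 99.94% to 99.98% of the values. The steps correspond to TMM scaling within each table, which was found from the values and is not stated. 3 reads correspond to 0.119 to 0.146 CPM. The planned quasi-likelihood test needs replicates, so log2 ratios carry exact Clopper-Pearson intervals. These were run on simulated counts that held no biological variation, so that run says nothing of how they cover it. Strains were compared on the deposited scaling, and times and levels on TMM factors computed jointly with edgeR 4.0.16. Alternatives were total counts, DESeq2 1.42.0 size factors, other minimum counts and folds, a pseudocount of 5, and edgeR's exact test at assumed coefficients of variation.

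The 10 genes and the lists were chosen with earlier results of these data known. Named genes were all 10, the called pathway genes that reached 50 normalized counts in either strain (at most 5 per direction and time), and the nearest pathway gene of each member. Marker genes were to be given by counts and sums, and those named, like the sums over related Argonautes, were chosen after values were seen. Of the gene identifiers, 22383 of 22554 are in the Ensembl annotation of WBcel235, used for exons and overlaps. Coordinates are those of the deposited tables, whose build is not stated. Nucleotide and protein sequences were not used here. Calculations ran in R 4.3.3 and Python 3.11.15 (scipy 1.17.1, pandas 2.3.3).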

Additional observations from a re-analysis of the deposited data

Results flagged for a closer look

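The strain difference lay on opposite sides of 0 at the 2 times for some genes, with 1 value per strain and time, so that the difference between the times was not tested beyond counting error. For prg-1 the log2 fold change was 0.47 at 24 h and -0.091 at 8 h. For csr-1 it was 0.52 at 24 h and -0.020 at 8 h, where the value is within counting error of 0. For alg-2 it was -0.62 at 24 h and 0.046 at 8 h, also within counting error of 0 at 8 h. Among the other pathway genes, rrf-2 stood at -1.45 at 24 h and 1.34 at 8 h, and nrde-3 at -1.05 at 24 h and 0.038 at 8 h. The course over time differed in sign between the strains for vsra-1, with a log2 fold change of 0.41 at 24 h against 8 h in GMC101 and -0.34 in CL2122.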

How the results depend on the processing

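No paired analysis was possible because each strain and time has 1 column with no replicate number, and leaving out a replicate was not possible for the same reason. No result changed sign among the called members under any alternative run. With a 1.5-fold minimum 5 members were called at 24 h (alg-2, wago-1 and hrde-1 added), beside 5826 of the 16757 genes tested. In CL2122 between the times 7 members were called at 1.5-fold, beside 8609 of 16493 genes tested. edgeR's exact test at an assumed coefficient of variation of 0.4 called 0 members at 24 h and 0 in GMC101 between the times. In CL2122 between the times it called 2, alg-3 and alg-4, and no longer alg-2. Other alternatives left the count of members called as reported or within 1.5 times of it. Over all genes, 1010 were called at 8 h, 488 with at least 50 normalized counts, 1946 at 1.5-fold, and 552, 156 and 16 by edgeR's exact test at coefficients of 0.1, 0.2 and 0.4. At 24 h 3679 were called, 2287 with at least 50 normalized counts, 5826 at 1.5-fold, and 1915 and 51 by edgeR's exact test at 0.2 and 0.4. Between the times, edgeR's exact test at 0.4 called 1141 genes in GMC101, where 4494 were called, and 2412 in CL2122, where 6376 were called. With total counts, 31.0% of the calls at 24 h were higher, against 42.9% with TMM, and between the times 62.6% in CL2122, against 49.8%. The reported calls allow for no biological variation, and those of edgeR's exact test rest on an assumed one. Counting error limits alg-3 and alg-4 most.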
